A study of Rattus norvegicus with 12 samples.

Results

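Chemokines draw leukocytes toward a tissue, and adhesion molecules on the surface of resident cells hold those leukocytes in place. The 6 genes described here are 4 chemokines (Cxcl1, Cxcl2, Ccl2 and Ccl20) and 2 leukocyte adhesion molecules (Icam1 and Vcam1), taken by Ensembl identifier from a table of raw counts for 32623 rat genes. The identifiers are ENSRNOG00000002802 (Cxcl1), ENSRNOG00000002792 (Cxcl2), ENSRNOG00000007159 (Ccl2), ENSRNOG00000015992 (Ccl20), ENSRNOG00000020679 (Icam1) and ENSRNOG00000014333 (Vcam1). The deposited table holds no gene names, so each symbol is the one paired with its identifier when the genes were chosen, and no annotation used here could check that pairing. Cxcl1 was picked for its rise on soft gel at passage 6. Its values at passage 6 are therefore given as a description with no test, and the other 5 belong to the same 2 functional groups.

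The cells were fibroblasts from the ventricles of adult wild-type rats, grown in DMEM/F-12 to which 20% fetal bovine serum was added. They stayed on rigid tissue culture polystyrene (plastic) or spent 48 h on the flat face of a soft synthetic hydrogel made from poly(ethylene glycol) norbornene (soft gel). Polyadenylated RNA was sequenced from 12 libraries, 3 for each surface at each of passages 3 and 6, where cells are detached and replated once per passage. By its title, the series relates the stiffness of the surface to the inflammatory secretion of these cells. Replicates are labelled as biological, with no word on separate animals, so each p-value reflects library-to-library spread, which may be technical.

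CXC chemokines such as Cxcl1 and Cxcl2 attract neutrophils through the receptor Cxcr2. Ccl2 attracts monocytes through Ccr2, and Ccl20 attracts cells that carry Ccr6, among them some T cells and dendritic cells. Icam1 binds the leukocyte integrins of the beta-2 family and Vcam1 binds integrin alpha-4 beta-1. In many cell types, fibroblasts among them, these genes are known targets of the transcription factor NF-kappaB, which binds DNA sites called kappaB and is switched on by interleukin-1, tumour necrosis factor and microbial products.

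Promoter windows are shown for the 2 neutrophil chemokines and the 2 adhesion molecules because Cxcl1 and Vcam1 had the most similar profiles across the libraries, while Icam1 differed less between groups. Each window runs from 250 bases before to 50 bases after the RefSeq gene start, on the strand of the gene, in the assembly GRCr8, which is not the assembly Rnor_6.0 of the counts. Capitals mark exact matches on either strand to the kappaB consensus GGGRNNYYCC, where R is A or G, Y is C or T and N is any base. Sites that differ from it in any letter were not searched for. The Cxcl1 window is chr14:17479272-17479571 (minus strand), the Cxcl2 window chr14:17467206-17467505 (minus strand), the Vcam1 window chr2:206742734-206743033 (minus strand) and the Icam1 window chr8:27829595-27829894 (plus strand).
Cxcl1: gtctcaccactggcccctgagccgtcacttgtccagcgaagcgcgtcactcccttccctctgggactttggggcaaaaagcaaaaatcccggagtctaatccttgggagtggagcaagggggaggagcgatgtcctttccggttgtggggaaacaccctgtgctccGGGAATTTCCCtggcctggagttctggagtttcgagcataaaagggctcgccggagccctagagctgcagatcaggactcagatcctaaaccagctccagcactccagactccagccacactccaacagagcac
Cxcl2: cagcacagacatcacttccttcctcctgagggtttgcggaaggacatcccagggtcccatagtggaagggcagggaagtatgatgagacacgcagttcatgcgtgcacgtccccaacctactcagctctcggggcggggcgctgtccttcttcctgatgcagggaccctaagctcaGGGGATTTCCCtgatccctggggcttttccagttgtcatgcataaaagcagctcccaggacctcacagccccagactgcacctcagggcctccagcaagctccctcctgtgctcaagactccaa
Vcam1: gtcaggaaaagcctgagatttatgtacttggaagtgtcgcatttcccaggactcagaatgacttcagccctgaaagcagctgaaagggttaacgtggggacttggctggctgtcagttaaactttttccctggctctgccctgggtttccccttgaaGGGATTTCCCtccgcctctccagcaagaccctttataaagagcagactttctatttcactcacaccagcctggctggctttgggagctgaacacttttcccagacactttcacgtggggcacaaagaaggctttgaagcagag
Icam1: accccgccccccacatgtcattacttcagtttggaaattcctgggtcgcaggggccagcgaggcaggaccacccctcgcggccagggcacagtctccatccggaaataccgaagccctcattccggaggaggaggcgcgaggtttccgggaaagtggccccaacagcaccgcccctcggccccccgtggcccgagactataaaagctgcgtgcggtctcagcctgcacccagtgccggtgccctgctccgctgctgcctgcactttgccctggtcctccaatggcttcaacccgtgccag
The windows of Cxcl1, Cxcl2 and Vcam1 each held 1 stretch of kappaB matches, at bases -84 to -74, -74 to -64 and -93 to -84 from the gene start. In each of these 3 stretches the matches on the 2 strands overlapped. The Ccl20 window held a match on the opposite strand at bases -89 to -80, written GGAAAACCCC on the strand of the gene. No match lay in the Icam1 window, which says only that no stretch there fits the consensus in full. Ccl2 had no entry in the promoter table. Thus 4 of 5 windows held a match, where 7.51% of 33469 rat promoter windows of the same length did. A match describes the letters and was not tested as a binding site. The motif TATAAA, searched on both strands, lay in the windows of Icam1 and Vcam1, in Vcam1 as overlapping matches on both strands, and in 14.2% of all windows. The AP-1 motif TGANTCA lay in none of the 5 windows and in 7.33% of all. Cxcl2 and Cxcl1 are consecutive genes on chromosome 14 in the RefSeq gene table.

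**Figure D1:**
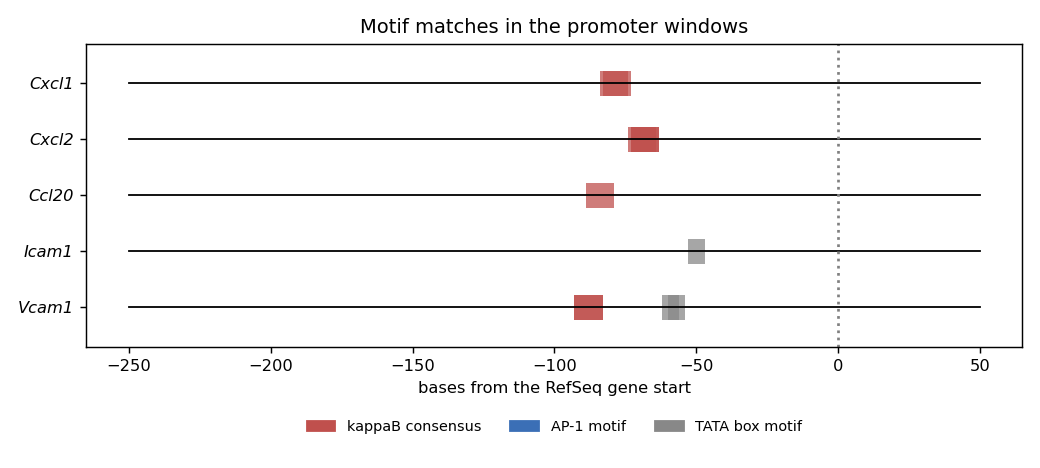
Positions of motif matches in the 5 promoter windows, in bases from the RefSeq gene start (dotted line at 0), with 1 line per gene. Red blocks are kappaB matches, which sit between -93 and -64 in Cxcl1, Cxcl2, Ccl20 and Vcam1; grey blocks are TATAAA matches in Icam1 and Vcam1, and no AP-1 match was found.

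The unit of level is CPM, in which library totals are made equal after TMM normalization. Levels are compared between libraries of one gene and not between genes. Library totals ran from 47834926 to 71464905 counts. Of the 6 genes, 5 passed the filter on low counts, as did 14660 of all genes; Cxcl2 did not. Same-numbered libraries of the 2 surfaces at one passage shared their deviations from the group means across genes, and each such couple is called a pair. Pair 3 of passage 6 was set apart from the other 10 libraries, at -50.4 and -45.8 on the second principal component against -6.02 to 28.6. Passage 6 results therefore also appear with that pair left out. In these bulk samples a change in the number of cells that express a gene and a change in RNA per cell cannot be told apart. Markers of fibroblasts and of other cell types could not be followed, because the table does not pair identifiers with names.

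Cxcl1 was low on plastic at passage 3, with 13 to 49 counts a library, and stood highest on soft gel at passage 6. Its level on plastic at passage 3 was 0.850, 0.198 and 0.604 CPM in libraries 1, 2 and 3, and on soft gel at passage 3 it was 2.10, 2.17 and 2.43. On plastic at passage 6 it was 1.69, 2.12 and 6.14 CPM, and on soft gel at passage 6 it was 30.8, 83.4 and 81.0. The 3 libraries of soft gel at passage 6 lay above all 9 others, and the groups of soft gel at passage 3 and plastic at passage 6 overlapped.

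At passage 3, which the choice of Cxcl1 did not use, its level was 0.551 ± 0.329 CPM on plastic and 2.23 ± 0.176 on soft gel (SD, n = 3), and the 2 groups did not overlap; 15.7% of genes tested were higher on soft gel with no overlap. It was higher in 3 of 3 pairs, as were 27% of genes, by 2.47-fold, 10.9-fold and 4.03-fold in pairs 1, 2 and 3. With the libraries treated as independent the log2 change was 2.03 ± 0.61 (SE), which missed the threshold of 0.05 (edgeR adjusted p = 0.103). With a term for each pair it was 2.08 ± 0.40 and passed (edgeR adjusted p = 0.00773). Without pair 2 or pair 3 of passage 3 the fit with pairs missed the threshold (edgeR adjusted p = 0.0616 and 0.0520), and limma-voom with the pair as a random effect gave an adjusted p of 0.203. Without pairs it passed in DESeq2 (adjusted p = 0.00370), in an edgeR fit limited to passage 3 (adjusted p = 0.0229), and in edgeR without plastic library 3 of passage 6 (adjusted p = 0.0478) or both libraries of pair 3 of passage 6 (adjusted p = 0.0354).

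At passage 6 the level of Cxcl1 was 3.32 ± 2.45 CPM on plastic and 65.1 ± 29.7 on soft gel (SD, n = 3). Soft gel exceeded plastic by 18.2-fold, 39.4-fold and 13.2-fold in pairs 1, 2 and 3. The log2 change of 4.29 ± 0.59 (SE) was number 30 from the top of 14660 genes, and it was 4.91 ± 0.58 without pair 3. With 1 library left out it ran from 3.96, without plastic library 1 of passage 6, to 5.10, without plastic library 3. The passage 6 difference was thus larger than that of passage 3 by 2.26 ± 0.81 on the log2 scale. With 1 library left out this excess ran from 1.79, without plastic library 1 of passage 3, to 3.06, without plastic library 3 of passage 6. Relative to passage 3, the mean level at passage 6 was 6.02-fold higher on plastic and 29.1-fold higher on soft gel. Plastic library 3 of passage 6 carried much of the plastic value: without it the log2 change between passages on plastic went from 2.61 to 1.80, and that between surfaces at passage 6 from 4.29 to 5.10. Each of these values uses the libraries for which the gene was picked, so none was tested.

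Cxcl2, a neighbour of Cxcl1 with the same receptor, was barely detected. It had 0, 0 and 1 counts on plastic at passage 3, 0, 0 and 3 on soft gel at passage 3, 0, 1 and 0 on plastic at passage 6, and 2, 28 and 16 on soft gel at passage 6. Soft gel at passage 6 held 46 of its counts, and there the 28 counts of library 2 equalled 0.471 CPM and the 2 of library 1 equalled 0.0325. A count of 0 in a library allows a level of up to 0.0457 to 0.0521 CPM (3 counts of the scaled total). Pooled over each group, the level at passage 6 was 38.0 times higher on soft gel, with a 95% exact interval of 6.49 to 1533 that covers counting error only. At passage 3 both groups were at or under 3 counts, and no fold is given. Pooled levels on soft gel were 13.8 times higher at passage 6 than at passage 3, with an interval of 4.45 to 69.5. Cxcl1 had 1893, 4964 and 6423 counts in soft gel libraries 1, 2 and 3 of passage 6. Whether some Cxcl2 counts there were Cxcl1 reads was not tested.

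Ccl2, the monocyte chemokine, was present in every library and varied most within passage 6. On plastic it stood at 39.8, 22.9 and 47.9 CPM at passage 3 and at 128, 41.7 and 10.5 at passage 6, in libraries 1, 2 and 3. On soft gel it stood at 54.4, 33.2 and 60.7 CPM at passage 3 and at 223, 341 and 89.7 at passage 6. The plastic libraries of passage 6 spanned 12.2-fold, both below and above those of passage 3, and their SD of 1.80 on the log2 scale exceeded that of 98.2% of the genes tested in that group. The median gene there had an SD of 0.237.

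Within pairs Ccl2 was higher on soft gel in 6 of 6, as were 14.4% of the genes tested. At passage 3 the excess was small and even, at 1.37-fold, 1.45-fold and 1.27-fold, with a log2 change of 0.42 ± 0.71 (edgeR adjusted p = 0.799), or 0.44 ± 0.35 with pairs (edgeR adjusted p = 0.436). With pairs it passed without pair 1 of passage 6, which enters through the shared estimate of the spread (edgeR adjusted p = 0.00294). At passage 6 it was 1.74-fold in pair 1, 8.18-fold in pair 2 and 8.52-fold in pair 3. Means at passage 6 were 60.0 ± 60.8 CPM for plastic and 218 ± 126 for soft gel (SD, n = 3), and the 2 groups overlapped. The log2 change was 1.86 ± 0.73 (SE, edgeR adjusted p = 0.144) with the libraries treated as independent, and 2.31 ± 0.39 with pairs (edgeR adjusted p = 0.00234). With pairs it passed without any one pair, at 1.90 ± 0.42 (edgeR adjusted p = 0.0154) without pair 3 of passage 6 and 3.06 ± 0.09 (edgeR adjusted p = 2.1e-06) without pair 1; treated as independent, it passed without plastic library 1 of passage 6, at 3.07 (edgeR adjusted p = 0.0257), and gave 1.73 ± 0.52 without pair 3 (edgeR adjusted p = 0.0801).

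Between passages, Ccl2 on soft gel had a log2 change of 2.14 ± 0.74 at passage 6 (SE, edgeR adjusted p = 0.0854). It passed without plastic library 1 or 3 of passage 6 (edgeR adjusted p = 0.0340 and 0.0262), which enter through the shared estimate of the spread, and with pair 3 of passage 6 wholly left out, at 2.51 ± 0.46 (edgeR adjusted p = 0.00897). It also passed in DESeq2 (adjusted p = 0.0253) and in an edgeR fit of the soft gel libraries alone (adjusted p = 0.0469). On plastic the value was 0.71 ± 0.72 (edgeR adjusted p = 0.560), and it turned to -0.50 without plastic library 1 of passage 6 (edgeR adjusted p = 0.639). Without both libraries of pair 3 it was 1.21 ± 0.46 (edgeR adjusted p = 0.125).

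Ccl20 was seen mainly at passage 6. It had 0 counts in all 3 plastic libraries of passage 3 and 0, 13 and 0 counts on soft gel at passage 3. At passage 6 it had 23, 24 and 10 counts on plastic and 57, 173 and 70 on soft gel, or 0.362 ± 0.191 and 1.57 ± 1.16 CPM (SD, n = 3). The groups at passage 6 did not overlap, as for 11.4% of genes in this direction, and soft gel exceeded plastic by 2.55-fold, 5.27-fold and 5.19-fold in pairs 1, 2 and 3. The log2 change at passage 6 was 2.12 ± 1.15 without pairs (edgeR adjusted p = 0.308) and 2.03 ± 0.51 with pairs (edgeR adjusted p = 0.0257). Leaving pair 3 out of the fit without pairs gave 2.07 ± 1.33 (edgeR adjusted p = 0.432), and leaving out soft gel library 2 of passage 6 gave 1.32 ± 1.26 (edgeR adjusted p = 0.614). With pairs it missed the threshold without pair 2 or pair 3 of passage 6 (edgeR adjusted p = 0.158 and 0.0950).

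On plastic, the pooled Ccl20 level at passage 6 was at least 20.8-fold higher than at passage 3, taking 3 counts over the group as the limit for 0. On soft gel the mean at passage 6 was 21.3-fold that of passage 3, a value that rests at passage 3 on the 13 counts of library 2. The gene passed the filter on low counts only through passage 6, so neither difference between passages is given a test. For soft gel against plastic at passage 3, the fit without pairs made no call (edgeR adjusted p = 0.242). The fit with pairs gave an edgeR adjusted p of 0.0470 that rests on the same 13 counts, and it was lost without pair 1 or pair 3 of passage 3 (edgeR adjusted p = 0.0744 and 0.0748) or pair 2 or pair 3 of passage 6 (edgeR adjusted p = 0.0791 and 0.0600). Without pair 2 of passage 3 no value can be had, since the other 4 libraries of that passage are at 0.

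**Figure D2:**
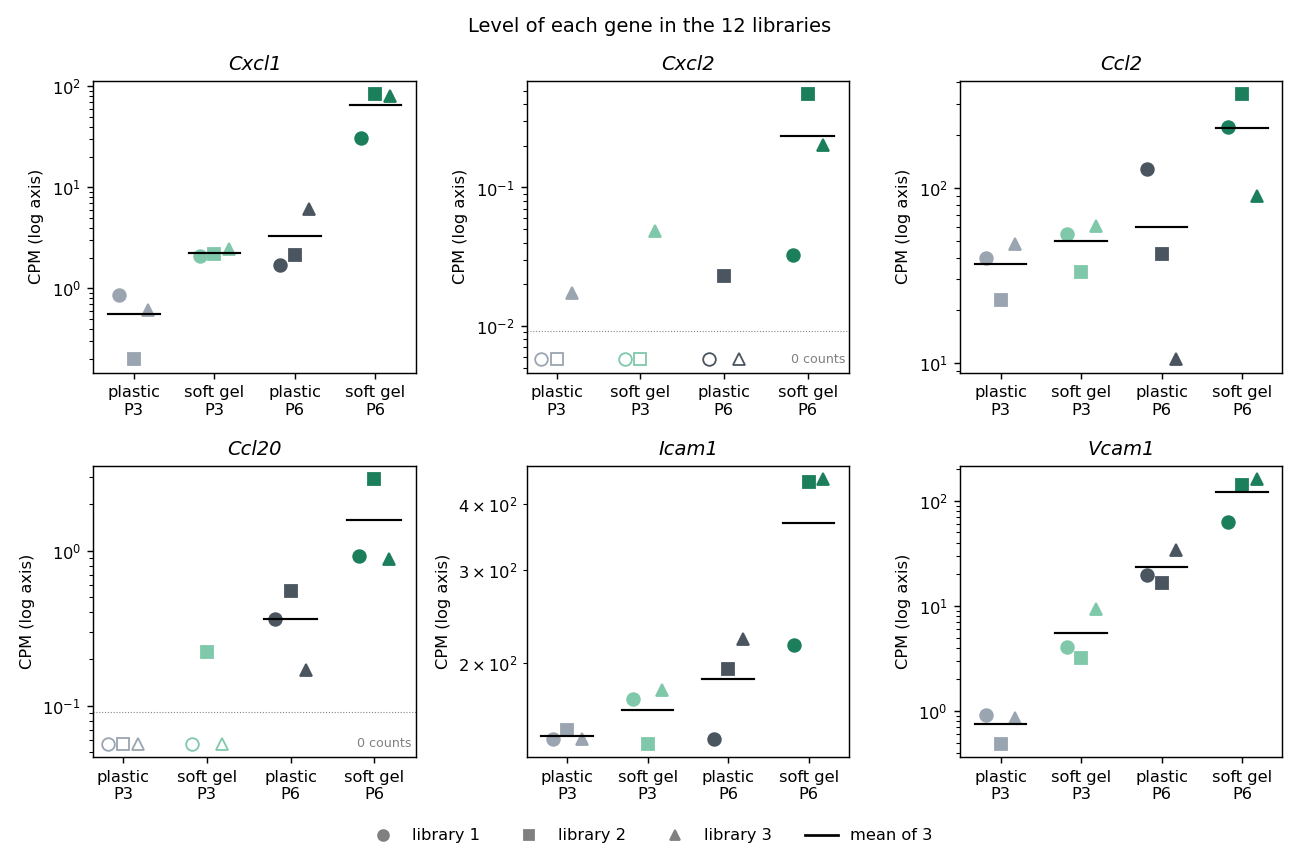
CPM of each gene in the 12 libraries, 1 panel per gene with its own log axis; P3 and P6 are passages 3 and 6, marker shapes are libraries 1 to 3, bars are means of 3 where no library is at 0, and open markers under the dotted line are libraries with 0 counts. Soft gel at passage 6 has the highest mean for all 6 genes, but Cxcl1 was picked for its rise there and Cxcl2 rests there on 46 counts. The share of all genes with that order was not counted. Ccl2 on plastic at passage 6 spreads from 10.5 to 128 CPM.

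Vcam1, which holds leukocytes through integrin alpha-4 beta-1, was higher at the later passage and on soft gel, with no overlap between any 2 of the 4 groups. On plastic at passage 3 it stood at 0.920, 0.488 and 0.863 CPM in libraries 1, 2 and 3, and on soft gel at passage 3 at 4.07, 3.19 and 9.28. On plastic at passage 6 it stood at 19.8, 16.6 and 34.3 CPM, and on soft gel at passage 6 at 63.4, 142 and 162. Every library of passage 6 thus lay above every library of passage 3, and soft gel lay above plastic within each passage. Of all genes tested, 15.7% at passage 3 and 11.4% at passage 6 were higher on soft gel with no overlap. How many genes kept all 4 groups apart was not counted.

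The passage 3 mean of Vcam1 was 0.757 ± 0.235 CPM for plastic and 5.51 ± 3.29 for soft gel (SD, n = 3). It rose by 2.87 ± 0.53 in log2 units (SE, edgeR adjusted p = 0.0245). It was higher in 3 of 3 pairs, as were 27% of genes, by 4.43-fold, 6.54-fold and 10.8-fold. In the fit without pairs the call was lost without plastic library 1, 2 or 3 or soft gel library 1 or 3 of passage 3 (edgeR adjusted p = 0.0666 to 0.130), and limma-voom with the pair as a random effect gave an adjusted p of 0.0854. With pairs the value was 2.79 ± 0.34 (edgeR adjusted p = 0.000761), and it passed with any one pair of either passage left out, at an edgeR adjusted p of 0.0128 or lower. Of the 5 members tested at passage 3, Vcam1 alone passed without pairs, where 2.3% of all genes did (1.13% higher and 1.17% lower on soft gel). With pairs Cxcl1 and Vcam1 passed, apart from the Ccl20 value that rests on 13 counts in 1 library, where 18.8% of all genes did (8.85% higher and 9.9% lower).

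The passage 6 mean of Vcam1 was 23.6 ± 9.45 CPM for plastic and 122 ± 52.0 for soft gel (SD, n = 3). It rose by 2.38 ± 0.46 in log2 units (SE, edgeR adjusted p = 0.00950). Soft gel exceeded plastic by 3.21-fold, 8.55-fold and 4.71-fold in pairs 1, 2 and 3. Without pair 3 the log2 change was 2.50 ± 0.51 (edgeR adjusted p = 0.0213). Fitted on passage 6 alone it missed the threshold, at 2.38 (edgeR adjusted p = 0.0602).

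Between passages Vcam1 rose on both surfaces. Genes higher at passage 6 with no overlap made up 18% of those tested on plastic and 16.2% on soft gel. For plastic the rise was 4.97 ± 0.55 in log2 units (SE, edgeR adjusted p = 0.000651), number 56 from the top of 14660 genes, and for soft gel 4.47 ± 0.51 (edgeR adjusted p = 0.000684), number 66. With pair 3 of passage 6 left out they were 4.60 ± 0.52 (edgeR adjusted p = 0.00123) and 4.22 ± 0.47 (edgeR adjusted p = 0.001). The soft gel response of Vcam1 at passage 6 differed from that at passage 3 by -0.50 ± 0.68 on the log2 scale, which did not pass (edgeR adjusted p = 0.967). That difference changed sign, to 0.11 ± 0.62, without soft gel library 3 of passage 3.

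Icam1, which binds beta-2 integrins, lay close together on both surfaces at passage 3 and was higher on soft gel at passage 6. On plastic it stood at 144, 149.5 and 144 CPM at passage 3 and at 144, 195 and 222 at passage 6, in libraries 1, 2 and 3. On soft gel it stood at 171, 141 and 178 CPM at passage 3 and at 217, 440.5 and 447 at passage 6. Soft gel library 1 of passage 6 lay just under plastic library 3 of that passage, so the 2 groups overlapped, although soft gel was higher in 3 of 3 pairs, as it was for 25.5% of genes.

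The passage 3 mean of Icam1 was 146 ± 3.26 CPM for plastic and 163 ± 19.9 for soft gel (SD, n = 3), with a log2 change of 0.16 ± 0.24 (SE, edgeR adjusted p = 0.764). Soft gel was lower in pair 2, at 0.942 times plastic, and higher in pairs 1 and 3, at 1.19 and 1.24 times. The passage 6 mean was 187 ± 39.7 CPM for plastic and 368 ± 131 for soft gel. Icam1 rose there by 0.98 ± 0.25 in log2 units (edgeR adjusted p = 0.0302), and by 1.51-fold, 2.26-fold and 2.01-fold in pairs 1, 2 and 3. The call was lost without plastic library 1 or 2 or soft gel library 2 or 3 of passage 6 (edgeR adjusted p = 0.0766 to 0.0969), without both libraries of pair 3, at 0.96 ± 0.28 (edgeR adjusted p = 0.0738), and when passage 6 was fitted alone (edgeR adjusted p = 0.175). With pairs the log2 change was 0.92 ± 0.12 (edgeR adjusted p = 0.000602), and it passed with any one pair of either passage left out, at an edgeR adjusted p of 0.00473 or lower.

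Of the 4 members tested at passage 6, Icam1 and Vcam1 passed without pairs, where 9.96% of all genes did (4.87% higher and 5.09% lower on soft gel). All 4 passed with pairs, where 24.9% did (12.3% higher and 12.6% lower). Since Cxcl1 was picked in this contrast, nothing is read from these counts. With pair 3 of passage 6 left out, Vcam1 alone passed in the fit without pairs, where 1012 of 14660 genes did. In the fit with pairs Ccl2, Icam1 and Vcam1 passed, where 2581 of 14660 genes did.

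On soft gel Icam1 rose from passage 3 to passage 6, with a log2 change of 1.17 ± 0.25 (SE, edgeR adjusted p = 0.0130), and without pair 3 of passage 6 it was 1.01 ± 0.25 (edgeR adjusted p = 0.0279). Fitted on soft gel alone it missed the threshold (edgeR adjusted p = 0.0541). On plastic the value was 0.36 ± 0.24 (edgeR adjusted p = 0.365). Ccl20 is not counted between passages, since the filter fixed its difference. Of the other 3 members tested, Icam1 and Vcam1 passed on soft gel, where 12.3% of all genes did (6.76% higher and 5.5% lower at passage 6). Vcam1 passed on plastic, where 13.4% did (7.67% higher and 5.76% lower). Replicate numbers did not pair the passages, so passaging itself and anything else that differed between early and late cultures cannot be told apart.

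**Figure D3:**
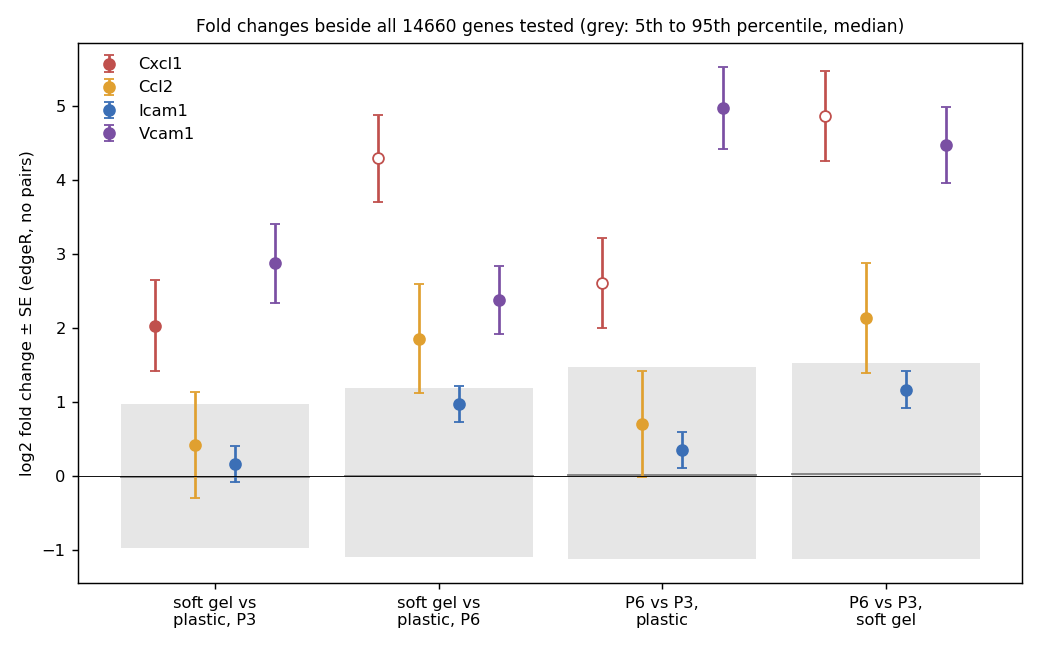
Log2 change ± SE (edgeR, libraries treated as independent) of 4 genes in 4 comparisons; grey boxes span the 5th to the 95th percentile of all genes tested and the grey line is their median, and open circles mark Cxcl1 values that use passage 6, which were not tested. Vcam1 lies above the grey box in all 4 comparisons and Icam1 within it in all 4.

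Whether the soft gel response differed between the passages was tested as an interaction for the 4 members other than Cxcl1 and Cxcl2. None passed without pairs, where 0% of the 14660 genes did in edgeR (1044 at an unadjusted p under 0.05, and 103 genes in DESeq2), and none passed with pairs, where 2.14% did (0.805% with a larger and 1.34% with a smaller value at passage 6). For Icam1 the response at passage 6 minus that at passage 3 was 0.81 ± 0.34 on the log2 scale (SE, edgeR adjusted p = 0.670), and with pairs 0.77 ± 0.17 (edgeR adjusted p = 0.0538). For Ccl2 it was 1.43 ± 1.01 (edgeR adjusted p = 0.880), and with pairs 1.87 ± 0.52 (edgeR adjusted p = 0.119). With pairs both passed without pair 1 of passage 6, where Icam1 stood at 0.93 ± 0.15 (edgeR adjusted p = 0.0122) and Ccl2 at 2.62 ± 0.11 (edgeR adjusted p = 4.91e-05). Pair 1 had the smallest soft gel response of the 3 pairs at passage 6 for Ccl2, Ccl20, Icam1 and Vcam1. Ccl20 gave no interpretable interaction because 5 of its 6 libraries at passage 3 were at 0.

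**Figure D4:**
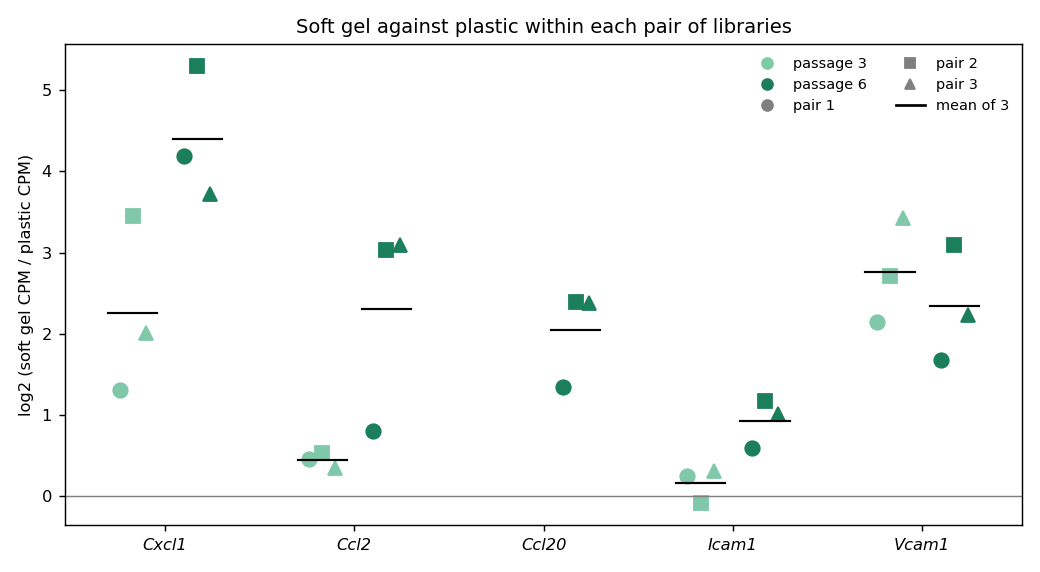
Log2 ratio of soft gel to plastic CPM within each pair of libraries, for 5 genes; light green is passage 3, dark green passage 6, marker shapes are pairs 1 to 3 and bars are means of 3. Ratios are above 0 except for Icam1 in pair 2 of passage 3 (0.942 times plastic); Ccl20 is shown at passage 6 alone, since plastic was at 0 at passage 3.

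The 6 genes did not vary alike among the cultures of one group. On soft gel at passage 6, library 1 was lowest of the 3 for Cxcl1, Cxcl2, Icam1 and Vcam1, while library 3 was lowest for Ccl2 and Ccl20. On plastic at passage 6, library 3 was highest for Cxcl1, Icam1 and Vcam1, and lowest for Ccl2 and Ccl20. The pair that stood apart from the other libraries was thus the pair with the lowest levels of Ccl2 and Ccl20 on both surfaces at passage 6, and it held the highest Vcam1 and Icam1 on both. Some of these orders were near ties on soft gel. Ccl20 was at 0.882 CPM (70 counts) in library 3 and 0.927 (57 counts) in library 1. Icam1 was at 447 CPM in library 3 and 440.5 in library 2. The part played in these values by whatever sets pair 3 apart was not tested.

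Likeness was measured as the root mean square difference between the log2 profiles of 2 genes over the 12 libraries, each profile centred on its own mean. Of 14659 other genes tested, Vcam1 was the nearest to Cxcl1, at 1.02 log2 units, and the second was ENSRNOG00000043098, at 1.05, which the table does not name. Cxcl1 was in turn number 4 from Vcam1. This order is a description of libraries that include those for which Cxcl1 was picked, and the rank of Vcam1 was 3 with a pseudocount of 0.5 CPM in place of 0.1 and 17 with pair 3 of passage 6 left out. Ccl20 was number 26 from Cxcl1, while Ccl2 was number 339 and Icam1 number 385. These ranks were not mutual, since Cxcl1 was number 1643 from Ccl20, 14322 from Ccl2 and 14525 from Icam1. The measure depends on the size of the changes, and the Ccl20 profile at passage 3 rests mostly on the pseudocount. ENSRNOG00000043098 ranged over 2.47 to 4.88 CPM for plastic and 8.84 to 12.1 for soft gel at passage 3, and at 7.54 to 13.9 on plastic and 42.4 to 87.3 on soft gel at passage 6.

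**Figure D5:**
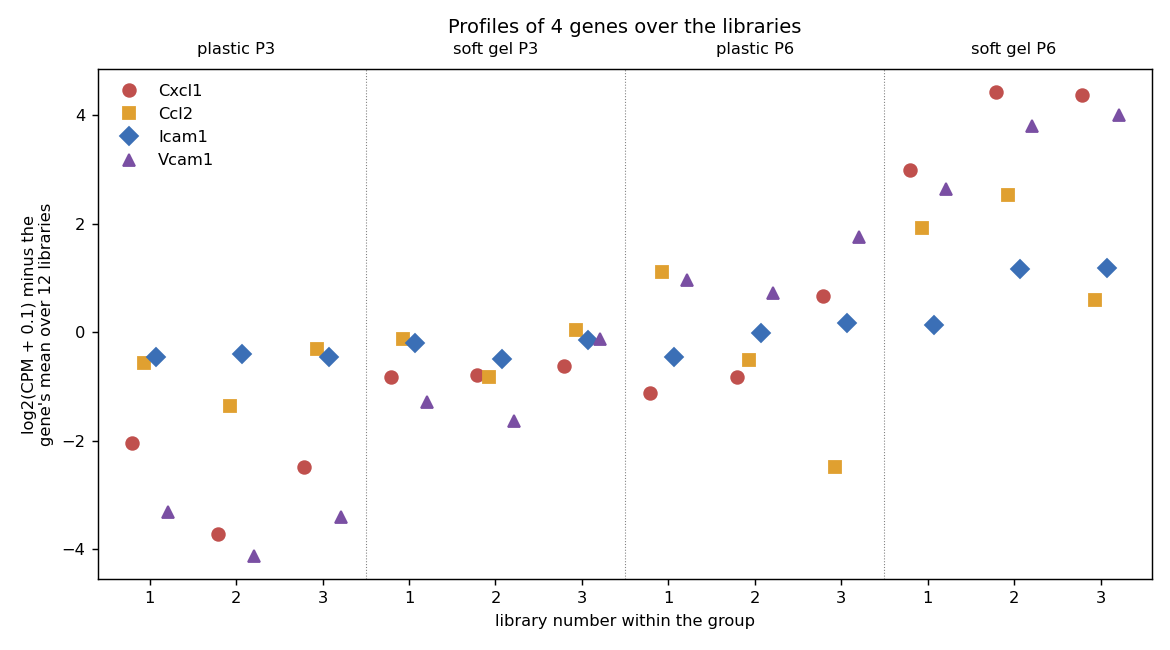
Centred log2(CPM + 0.1) of 4 genes in each library, with libraries 1 to 3 of each group side by side and 0 at the mean of the gene over the 12 libraries. Cxcl1 and Vcam1 are lowest on plastic at passage 3 and highest on soft gel at passage 6, Icam1 spans the narrowest range, and Ccl2 is lowest of its group in library 3 at passage 6 on both surfaces.

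From plastic at passage 3 to soft gel at passage 6, the ends of the design, mean CPM was 162-fold higher for Vcam1, 118-fold for Cxcl1, 5.91-fold for Ccl2 and 2.52-fold for Icam1. The ratios were not tested, and Cxcl1 was picked for its rise on soft gel at passage 6.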

How the data were processed

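Per the labels' protocols, reads were paired and 150 bases long, from poly(A)-selected RNA. The authors deposited 1 table of raw counts per Ensembl rat gene and library. Per the submitters' processing notes, the build was Rnor_6.0 and the tools included HISAT2 2.1.0, FastQC 0.11.5, Cuffnorm 2.2.1 and Cufflinks. How reads were assigned to genes, with or without strand, and the annotation release were not given in the sources used here. Some reads of related genes such as Cxcl1 and Cxcl2, or of overlapping genes, could be counted for the wrong one.

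Software was Python 3.11.15 and R 4.3.3, the latter with DESeq2 1.42.0, edgeR 4.0.16 and limma 3.58.1. Genes were filtered with filterByExpr (minimum count 10, minimum total 15) and scaled by TMM. The main test was edgeR's quasi-likelihood F test on counts, with the 4 groups in 1 model, no block, and Benjamini-Hochberg adjustment over all 14660 genes at a threshold of 0.05; each SE is the log2 fold change over the square root of F. Fits were tested on simulated data, drawn with the same spread setting for every gene and without effects of pairs, so the pairing seen here was not covered. Folds are ratios of CPM. Likeness and log2 SDs used log2(CPM + 0.1). Replicates were no duplicates (chi-square per degree of freedom at least 30.9).

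Same-numbered libraries were checked for pairing by correlating, across genes, their deviations from the group means. Between surfaces the 3 correlations ran from 0.362 to 0.579 at passage 3 and from 0.621 to 0.773 at passage 6, so numbers pair the surfaces at each passage, on the evidence of these correlations. Between passages they ran from -0.311 to 0.0253. The fit with pairs has a term for each passage and number.

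All 6 genes are named. They, the comparisons and the alternatives were chosen with earlier results of these data known. Lists of other chemokines, receptors, NF-kappaB pathway genes and cell type markers were set by symbol and could not be followed, since 0 entries of the RefSeq gene table (GRCr8) carry an Ensembl identifier. By symbol, 6 genes matched that table and 5 the RefSeq promoter table (GRCr8). Intervals and floors cover counting error only, since no source used here names molecular identifiers.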

Additional observations from a re-analysis of the deposited data

How the results depend on the processing

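Of 573 recomputed values of single genes, 507 counted as unchanged, 22 lost a call, 38 gained one, 1 moved and 5 changed sign. Unchanged means the same direction and the same side of the threshold. These tallies also hold Ccl20 between passages, a difference that the filter fixed, so nothing is read from its calls there. Cxcl1 values that use passage 6 have no test. For them it means the same direction and a shift under the within-group SD on the log2 scale, and a larger shift counts as moved. The sign changes were Ccl2 between passages on plastic without plastic library 1 of passage 6 (-0.50), Vcam1 in the interaction without soft gel library 3 of passage 3 (0.11), and Ccl20 in the interaction with the pair as a random effect (0.40), on omitting soft gel library 2 of passage 3 (2.13) or, with pairs, pair 2 of passage 3 (2.03). With 1 library or pair left out, these 3 values ranged from -0.50 to 1.21, from -0.83 to 0.11 and from -3.87 to 2.13. The causes were not tested. The plastic at passage 3 and most of the soft gel at passage 3 had no Ccl20 counts, which limits every Ccl20 value.

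The counts of called genes depended on the model. Member counts for soft gel against plastic include Ccl20, whose calls at passage 3 compare with libraries at 0. Between passages Ccl20 is left out, since the filter fixed its difference. Soft gel against plastic at passage 3 gave 337 genes (1 member); DESeq2 gave 1256 (2 members), the replicate block by passage and number 2749 (3 members), a replicate block by number across groups 629, the pair as a random effect in limma-voom 2407 (0 members), only the 2 groups compared 2058 (2 members), and leaving out both libraries of pair 3 of passage 6 1041 (2 members). At passage 6 the 1460 genes (2 members) became 2269 in DESeq2, 3650 with the replicate block (4 members), 3434 with the random effect (4 members) and 183 with only the 2 groups compared (0 members), and 1 member passed without both libraries of pair 3. Between passages on plastic, 1968 genes became 1540 without those libraries, and Vcam1 passed in both fits. On soft gel 1797 genes (Icam1 and Vcam1 among them) became 2725 in DESeq2 (Ccl2, Icam1 and Vcam1) and 1007 with only the 2 groups compared (Ccl2 and Vcam1). The interaction gave 0 genes, 1 with no filter, 103 in DESeq2, 314 with the replicate block, 83 with the random effect and 2 without both libraries of pair 3.

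With 1 library left out, genes ran from 34 to 572 at passage 3, 898 to 1471 at passage 6, 888 to 2142 between passages on plastic, 821 to 2024 on soft gel and 0 to 9 in the interaction. Members ran from 0 to 2 at passage 3, 1 to 2 at passage 6 and 0 to 0 in the interaction. Between passages, with Ccl20 left out, Vcam1 passed on plastic in each of these fits. On soft gel Icam1 and Vcam1 passed in each, and Ccl2 passed without plastic library 1 or 3 of passage 6. With pairs and 1 pair left out, an alternative chosen after seeing the data, genes ran from 1052 to 3230 at passage 3, 2581 to 3387 at passage 6 and 33 to 480 in the interaction, and members from 1 to 4, 3 to 4 and 0 to 2.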
